A study of Mus musculus with 18 samples.

Results

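The mitochondrial solute carriers described here are the genes whose symbol is Slc25a followed by a number, together with the uncoupling protein genes Ucp2 and Ucp3. Ucp1, the thermogenic carrier of brown fat, was left out by the same rule. This rule gave 46 genes out of the 45151 symbols listed for all samples. Levels in iWAT and BAT come from 1 row per gene that holds all of its merged exons. Those in eWAT come from the transcript row of that gene with the most reads.

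Carriers of this family are small proteins that sit in the inner membrane of the mitochondrion and exchange a substrate on one side for a substrate or proton on the other. They bring in ADP, phosphate, acylcarnitines, amino acids and cofactors, and they let out ATP, citrate and other products. In white adipocytes, citrate that leaves the mitochondrion feeds the synthesis of fatty acids. In brown fat, mitochondria are dense and oxidise imported fatty acids to produce heat.

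Adipocytes of inguinal (iWAT) and epididymal (eWAT) white fat and whole brown adipose tissue (BAT) were taken from wild type male C57BL/6J mice at an age of 16 weeks, and all mice were fed regular chow. There were 6 RNA-seq libraries of each depot. White fat was digested with collagenase and its floating cells were collected, whereas RNA of BAT came from the tissue. In any comparison with BAT, the depot cannot be told apart from how it was prepared, nor fewer cells of a type from less RNA per cell. The labels call BAT both a tissue and adipocytes. Samples are named by the number in the title, taken as that of the mouse, although the labels do not say so.

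The reads behind the RPKM (reads of a row scaled by its length and by the reads of the sample) were between 22929576 and 34512470 per library. Brown fat markers (6 genes, Ucp1 among them) had a summed RPKM of 2720 to 3408 in BAT, 78.6 to 122 in iWAT and 12.3 to 24.9 in eWAT. A pair of libraries stood apart, 1 in eWAT and 1 in BAT. The eWAT sample of mouse 15 had a summed RPKM of 2421 over 8 macrophage markers, against at most 568.6 in the other eWAT samples. The BAT sample of mouse 12 had a summed RPKM of 1679 over 8 skeletal muscle markers, against at most 147 in the other BAT samples. Results that rest on these libraries are given with and without them.

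The kind of row follows the depot, which bears on all comparisons with eWAT. The merged row was longer than the transcript row used in eWAT by a median ratio of 1.34 over the 46 genes, and the 2 rows were identical for 3 genes only (Slc25a2, Slc25a17 and Slc25a44). A shorter row collects fewer reads and gives a higher RPKM for the same reads. The ratio was highest for Slc25a3, the phosphate carrier, whose merged row had 7183 bases and a ratio of 4.84. Differences between eWAT and the other depots were therefore tested on reads and again with the row length as an offset. Where the 2 fits differ for rows of unlike length, row length and depot cannot be told apart. The offset fit also sets the scaling of samples anew from length-corrected reads, so genes with rows of nearly equal length can move too.

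The sequences upstream of the genes with the largest differences between iWAT and BAT are shown first, since their letters can be compared beside the values. RefSeq windows of the GRCm38.p6 build were found for 36 of the 46 genes, and the 250 bases before an annotated start were searched on both strands for the letters AAGGTCA (bound by estrogen-related receptors), TGACGTCA (cyclic AMP response element) and CGCATGCG (core of the NRF1 motif). The last 2 read the same on both strands, and none of the motifs overlaps another. Slc25a48 and Slc25a42 were far lower in iWAT than in BAT, and no motif was found in their windows. Slc25a34, also far lower, holds 1 AAGGTCA on the reverse strand, in capitals, 119 bases upstream. Slc25a10 and Slc25a25 were far higher in iWAT than in BAT. Slc25a25 has 3 windows, and only the one shown holds a motif, TGACGTCA, in capitals, 150 bases upstream of its own start. The other 2 windows hold none of the motifs and lie further upstream. The Slc25a25 row used in eWAT began at the same outer end as the merged row (mm9 32306990), and positions were not matched between the 2 builds. Which of the 3 starts gave the reads counted here was not tested.
Slc25a48 (chr13:56438105-56438354, plus strand): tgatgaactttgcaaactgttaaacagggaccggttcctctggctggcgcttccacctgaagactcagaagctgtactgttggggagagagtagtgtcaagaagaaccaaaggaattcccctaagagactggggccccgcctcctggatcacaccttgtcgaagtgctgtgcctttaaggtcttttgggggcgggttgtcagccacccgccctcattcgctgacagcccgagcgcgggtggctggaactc
Slc25a42 (chr8:70212282-70212531, minus strand): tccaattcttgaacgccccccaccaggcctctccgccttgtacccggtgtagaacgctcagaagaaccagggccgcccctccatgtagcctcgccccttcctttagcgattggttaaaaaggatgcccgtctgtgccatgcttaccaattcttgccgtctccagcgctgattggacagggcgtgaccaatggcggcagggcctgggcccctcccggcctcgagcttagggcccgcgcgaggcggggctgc
Slc25a34 (chr4:141623835-141624084, minus strand): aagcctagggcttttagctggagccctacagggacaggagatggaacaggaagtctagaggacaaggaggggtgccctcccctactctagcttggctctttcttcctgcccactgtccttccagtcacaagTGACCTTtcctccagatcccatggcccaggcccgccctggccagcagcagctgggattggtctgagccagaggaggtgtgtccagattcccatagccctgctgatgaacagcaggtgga
Slc25a10 (chr11:120491587-120491836, plus strand): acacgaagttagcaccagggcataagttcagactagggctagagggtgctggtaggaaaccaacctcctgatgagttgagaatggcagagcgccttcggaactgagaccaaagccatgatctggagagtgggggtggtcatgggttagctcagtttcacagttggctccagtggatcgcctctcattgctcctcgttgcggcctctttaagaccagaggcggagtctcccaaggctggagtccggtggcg
Slc25a25 (chr2:32424067-32424316, minus strand): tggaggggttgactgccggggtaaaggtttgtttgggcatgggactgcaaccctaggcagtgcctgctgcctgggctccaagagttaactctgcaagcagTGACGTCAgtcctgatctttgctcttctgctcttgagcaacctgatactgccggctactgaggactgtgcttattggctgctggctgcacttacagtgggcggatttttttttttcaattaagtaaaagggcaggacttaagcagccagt

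AAGGTCA was present upstream of 1 of the 36 genes (2.78%) and of 4.7% of 27025 genes. TGACGTCA was present upstream of 2 of the 36 genes (5.56%), Slc25a25 and Slc25a36, and of 1.77% of all genes. CGCATGCG was present upstream of 0 of the 36 genes and of 1.75% of all genes. A match describes letters only, and a missing match says only that these letters are not in this window.

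A mean RPKM of at least 1 was reached by 31 of the 46 genes in BAT, 31 in iWAT and 35 in eWAT, and a mean of at least 10 by 17 genes in each depot. The RPKM summed over the 46 genes was 930.6 ± 60.5 in BAT, 868.1 ± 88.1 in eWAT and 649.6 ± 36.4 in iWAT (SD, n = 6 each). The count, sum and ranks of eWAT rest on transcript rows, most of them shorter, which give a higher RPKM for the same reads. Slc25a3 alone had a mean RPKM of 137 in eWAT against 37.2 in iWAT. The higher sum in eWAT than in iWAT thus cannot be told apart from row length. Slc25a12 and Slc25a13 reached a mean of 1 in eWAT only through the sample of mouse 15. The citrate carrier Slc25a1 took the largest share of this sum in iWAT (22.9% ± 2.68, SD, n = 6) and in BAT (22.4% ± 5.86, SD, n = 6). In eWAT it had 14.1% ± 3.23 (SD, n = 6), and came after Slc25a3 with 15.8% ± 1.07 (SD, n = 6), the gene with the most uneven row length. The ADP/ATP carrier Slc25a4 held 11.9% in BAT, 10.3% in eWAT and 10.8% in iWAT. The depots differed in what followed. The dicarboxylate carrier Slc25a10 ranked 26 in BAT, 4 in iWAT and 5 in eWAT by mean RPKM. The carnitine/acylcarnitine carrier Slc25a20 ranked 3 in BAT, 14 in iWAT and 11 in eWAT.

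**Figure D1:**
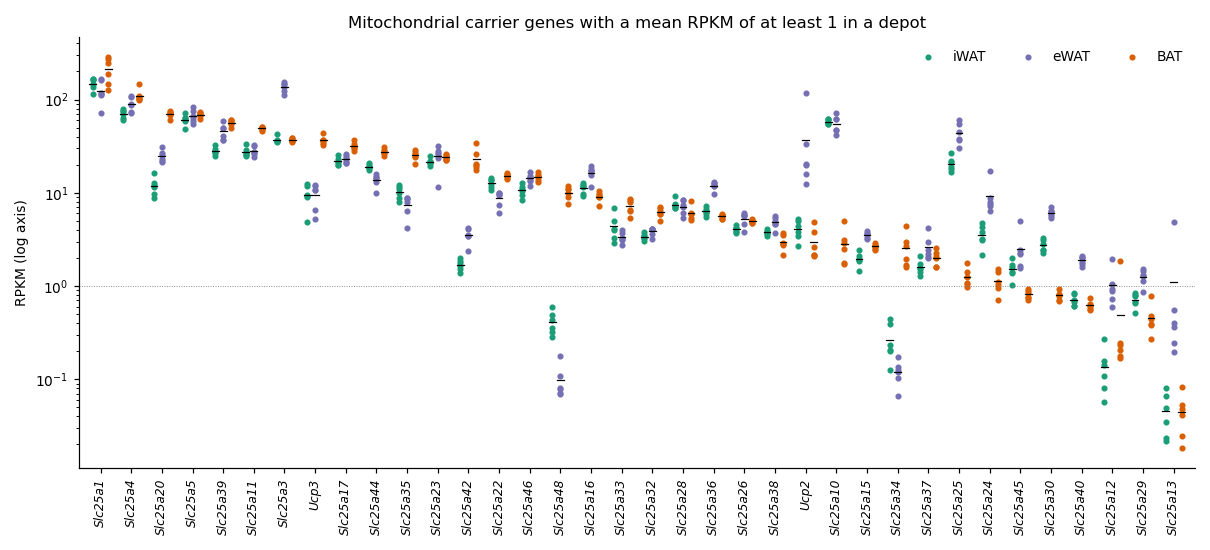
RPKM of each sample (points, log axis) and the mean of 6 samples (black bars) for carriers with a mean of at least 1 in a depot, ordered by their mean in BAT. Slc25a20, Slc25a42, Slc25a48, Slc25a34 and Ucp3 are highest in BAT and Slc25a10, Slc25a25 and Slc25a30 are lowest there. Values in eWAT rest on other rows than those of iWAT and BAT.

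At the low end, Slc25a41, an ATP-Mg/phosphate carrier, had 0 reads in all eWAT samples and at most 1 read in a sample of the other depots. A count of 0 allows up to 3 reads, which is an RPKM of 0.0719 to 0.0920 in the eWAT samples and covers counting error only. Slc25a2 (ornithine), Slc25a21 (oxodicarboxylates) and Slc25a31 (a testis form of the ADP/ATP carrier) had fewer than 10 reads in every sample. Slc25a43 had at most 3 reads in iWAT and BAT and 1 to 29 reads in eWAT, the highest in mouse 15. Together with Slc25a18 these genes had too few reads for a test. In total 39 of the 46 genes could be tested between iWAT and BAT, and 40 in each comparison with eWAT. Slc25a13 was the added gene, and it passed the minimum of 10 reads in 6 samples through its eWAT samples alone. Slc25a27 passed that minimum because of its BAT samples. Each was kept through the depot where it was high, so its calls against the other depots follow in part from this minimum. Both are in the counts below.

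The first comparison asks how the carriers differ between white adipocytes of iWAT and BAT, on the same rows. Most carriers were lower in iWAT, led by Slc25a48, Slc25a42, Slc25a34, Slc25a27 and Slc25a20, whereas Slc25a10 and Slc25a25 stood out on the other side at 16.9-fold and 13.7-fold higher. Of the 39 genes tested, 5 were higher and 26 were lower in iWAT (edgeR quasi-likelihood test, Benjamini-Hochberg adjusted p under 0.05), and 8 were not past the threshold. Over all 19733 rows tested, 67.6% passed, with 34.0% higher and 33.6% lower in iWAT. The share of members that were lower, 66.7%, was thus well above that of all rows and the share that were higher, 12.8%, was below it. The median log2 fold change of the 39 genes was -0.59, against 0.01 over all rows. Without the BAT sample of mouse 12 the counts were 5 and 26 again.

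The carriers as a group differed less than the respiratory chain they serve. In a list of 21 respiratory chain and related genes, 21 were lower in iWAT with a median log2 fold change of -2.12. Below this median lay 6 carriers: Slc25a48, Slc25a42, Slc25a34, Slc25a27, Slc25a20 and Ucp3. Of these, Slc25a27 had passed the minimum of reads because of its BAT samples. Of 18 tested genes for other transport into or out of the mitochondrion, 4 were higher and 12 lower in iWAT, with a median of -0.91. In that list Cpt1b, the muscle and brown fat form of carnitine palmitoyltransferase 1, had a log2 fold change of -6.22 and its liver form Cpt1a one of 1.75. The mitochondrial pyruvate carrier genes, listed as Brp44 and Brp44l, had log2 fold changes of -1.75 and -2.02, and the outer membrane channels Vdac1, Vdac2 and Vdac3 of -0.98, -1.01 and -0.72.

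**Figure D2:**
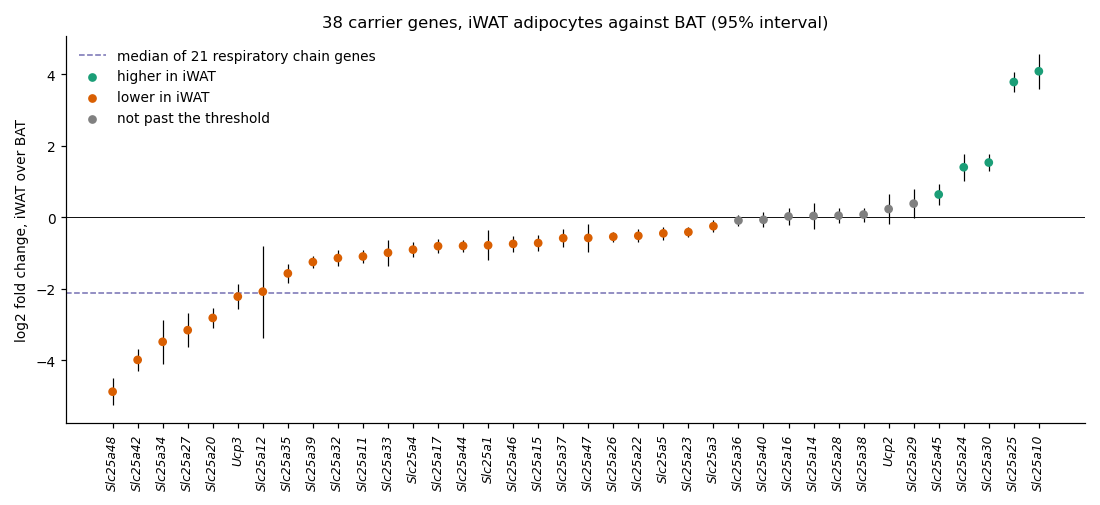
Log2 fold change of iWAT over BAT for 38 of the 39 carriers tested (points, with 95% intervals from the edgeR fit, ordered by value), with the median of 21 respiratory chain genes as a dashed line at -2.12. The 5 genes higher in iWAT reach 4.08 (Slc25a10), and 6 of the lower genes lie under the dashed line.

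Between eWAT and BAT, 8 of the 40 genes tested were higher in eWAT and 26 were lower, and 6 did not pass. Over all 18383 symbols tested 70.3% passed, 35.6% higher and 34.7% lower in eWAT. The median log2 fold change of the 40 genes was -0.74, against 0.03 over all symbols and -2.64 over the 21 respiratory chain genes, of which 21 were lower. With row length as an offset, 12 were higher and 24 lower. Past the threshold in the same direction both ways were 8 higher and 23 lower genes. Leaving out the eWAT sample of mouse 15 as well left 7 and 23, the lost gene being Slc25a13. The comparison shares its BAT samples with the one above, so the values of the 2 comparisons are given side by side and not as support for each other.

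Among the carriers of adenine nucleotides and phosphate, the ADP/ATP carriers Slc25a4 and Slc25a5 were moderately lower in both white depots and the ATP-Mg/phosphate carriers Slc25a24 and Slc25a25 were higher. Slc25a4, the ADP/ATP carrier of heart and muscle type, had RPKM values of 60.5 to 79.2 in iWAT (median 72.8), 71.6 to 109.5 in eWAT (median 88.6) and 98.4 to 147 in BAT (median 103). The iWAT and BAT samples did not overlap. Its log2 fold change was -0.91 ± 0.11 (SE) in iWAT over BAT (edgeR adjusted p = 5.82e-06) and -0.92 ± 0.12 in eWAT over BAT (edgeR adjusted p = 1.59e-06). The value of 147 belongs to the BAT sample of mouse 12, and without it the first was -0.83 (edgeR adjusted p = 1.97e-06).

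The ubiquitous ADP/ATP carrier Slc25a5 had a mean RPKM of 69.1 ± 4.20 in BAT, 66.8 ± 10.5 in eWAT and 60.9 ± 7.30 in iWAT (SD, n = 6). The samples of all depots overlapped, and the log2 fold changes were -0.45 ± 0.09 in iWAT and -0.79 ± 0.11 in eWAT (edgeR adjusted p = 5.93e-04 and 4.42e-06). A second, unspliced row of that symbol on chromosome 1 (mm9, 79918857 to 79920082, minus strand, 1 exon) had mean RPKM values of 45.5 in iWAT and 46.2 in BAT. This row was 98.2% identical to the Slc25a5 transcript over 1222 aligned bases, so the counting can split reads between both and the level of Slc25a5 is uncertain.

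Slc25a3 had nearly the same RPKM in iWAT (37.3 ± 2.67, SD, n = 6) and BAT (36.9 ± 1.53, SD, n = 6). Its log2 fold change of -0.25 ± 0.08 (edgeR adjusted p = 0.0141) was obtained with TMM scaling, whereas on unscaled RPKM the median of all rows stood 0.24 higher in iWAT (log2, pseudocount 0.1). With the mouse number as a replicate block the adjusted p was 0.085. In eWAT over BAT the value turned from -0.71 on reads to 1.17 with row length as an offset, so no direction is given for it. The merged row of Slc25a3 also overlaps LOC100046151 on the same strand, which had a mean of 5614 reads in iWAT against 7285 for Slc25a3.

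Slc25a25 (mm9 chromosome 2, 32270007 to 32306990, minus strand), a calcium-regulated ATP-Mg/phosphate carrier, had RPKM values of 16.9 to 26.6 in iWAT (median 20.1), 30.1 to 59.9 in eWAT (median 41.3) and 0.984 to 1.76 in BAT (median 1.16). All white adipocyte samples lay above all BAT samples. Both white depots differed from BAT, with a log2 fold change of 3.78 ± 0.14 in iWAT (edgeR adjusted p = 6.23e-11) and 3.58 ± 0.18 in eWAT over BAT (edgeR adjusted p = 2.94e-12), and 4.43 in the latter with row length as an offset.

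Slc25a24, of the same kind, had a median RPKM of 3.46 in iWAT (range 2.16 to 4.71), 7.79 in eWAT (6.42 to 17.3) and 1.06 in BAT (0.701 to 1.51). None of the ranges overlapped, and the top eWAT value is that of mouse 15. Against BAT, its log2 fold change was 1.40 ± 0.19 in iWAT and 2.71 ± 0.25 in eWAT, the latter 2.41 without mouse 15 (edgeR adjusted p = 1.66e-05, 1.90e-08 and 9.07e-10). Slc25a23, another calcium-regulated form, had 19.5 to 24.7 RPKM in iWAT and 22.3 to 26.1 in BAT, with overlap, and a log2 fold change of -0.42 ± 0.08 (edgeR adjusted p = 2.66e-04).

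The uncoupling protein group was split. Ucp3, a carrier known from muscle and brown fat, had RPKM values of 4.85 to 12.4 in iWAT (median 9.41), 5.22 to 12.2 in eWAT (median 10.7) and 32.8 to 43.7 in BAT (median 36.5). All BAT samples lay above all white adipocyte samples, and the white depots overlapped. On the log2 scale its fold change over BAT was -2.22 ± 0.18 in iWAT and -2.64 ± 0.21 in eWAT (edgeR adjusted p = 7.20e-08 and 2.22e-09).

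Ucp2, which is common in macrophages and other immune cells, had RPKM values of 2.69 to 5.21 in iWAT (median 4.09), 12.5 to 116.7 in eWAT (median 20.1) and 2.12 to 4.86 in BAT (median 2.39). The iWAT and BAT samples overlapped and the eWAT samples lay above both. No difference past the threshold was found between iWAT and BAT, with a log2 fold change of 0.23 and a 95% interval of -0.19 to 0.64 (edgeR adjusted p = 0.354). In eWAT over BAT it was 2.55 ± 0.46 (edgeR adjusted p = 8.55e-05), and 1.68 without mouse 15 (edgeR adjusted p = 7.65e-06). The macrophage markers, 8 of 9 found and none at 0, summed to 173 to 2421 in eWAT, 36.1 to 208.5 in iWAT and 31.6 to 68.7 in BAT, and their part in the level of Ucp2 was not tested.

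The mitochondrial carrier Slc25a30 was higher in white adipocytes, with a mean RPKM of 0.792 ± 0.0877 in BAT, 2.74 ± 0.406 in iWAT and 6.12 ± 0.596 in eWAT (SD, n = 6). Its samples did not overlap between depots in RPKM, and its log2 fold change over BAT was 1.53 ± 0.12 in iWAT and 1.30 ± 0.11 in eWAT (edgeR adjusted p = 4.52e-08 and 7.26e-09). The reads of the white depots did overlap, with 389 to 709 in iWAT and 401 to 673 in the shorter eWAT row. Between iWAT and eWAT, Slc25a30 did not pass on reads (0.18, edgeR adjusted p = 0.245). Slc25a27, a brain form of the group, was low everywhere, with 4 to 13 reads in iWAT, 5 to 21 in eWAT and 43 to 82 in BAT. Relative to BAT it had a log2 fold change of -3.16 ± 0.24 in iWAT and -3.20 ± 0.31 in eWAT (edgeR adjusted p = 4.12e-08 and 4.22e-08). Slc25a27 passed the minimum of reads because of its BAT samples, where it was high, so these calls follow in part from that minimum. Slc25a14 did not pass on reads in either comparison, and with row length as an offset it was higher in eWAT than in BAT by 0.75 (edgeR adjusted p = 5.66e-04).

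Carriers of di- and tricarboxylates moved in opposite directions. Slc25a10 (mm9 chromosome 11, 120353151 to 120362475, plus strand), which exchanges malate and succinate for phosphate, had RPKM values of 54.2 to 61.3 in iWAT (median 58.6), 41.3 to 71.2 in eWAT (median 54.5) and 1.71 to 5.03 in BAT (median 2.69). All white adipocyte samples were at least 8 times above the highest BAT sample, with 5418 reads or more each against 284 to 936 in BAT. The log2 fold change was 4.08 ± 0.25 in iWAT (edgeR adjusted p = 5.05e-09) and 3.49 ± 0.23 in eWAT (edgeR adjusted p = 2.01e-10). A row on the opposite strand that overlaps its start had a mean of 400.8 reads in iWAT and 21.5 in BAT, against 8557 and 489.8 for Slc25a10.

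Slc25a1, which exports citrate, varied more within depots, from 114 to 168 RPKM in iWAT (median 153), 71.8 to 165 in eWAT (median 116) and 126 to 288 in BAT (median 217). The depots overlapped. Its log2 fold change over BAT was -0.79 ± 0.21 in iWAT and -1.5 ± 0.23 in eWAT (edgeR adjusted p = 0.00457 and 1.14e-05). The oxoglutarate carrier Slc25a11, part of the malate/aspartate shuttle, had 24.6 to 33.7 RPKM in iWAT, 24.5 to 32.2 in eWAT and 46.5 to 50.9 in BAT, with no overlap between white adipocytes and BAT. Against BAT, its log2 fold change was -1.10 ± 0.09 in iWAT and -1.44 ± 0.10 in eWAT (edgeR adjusted p = 8.04e-08 and 2.01e-10).

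Of the amino acid carriers, 4 of 6 tested were lower in iWAT than in BAT, against 33.6% of all rows. In eWAT 3 of 7 were lower and 2 higher (42.9% and 28.6%), shares near the 34.7% and 35.6% of all symbols, and 1 of the 2, Slc25a13, could not be tested without mouse 15. Slc25a44, which carries branched-chain amino acids into mitochondria, had RPKM values of 17.5 to 20.7 in iWAT (median 18.9), 9.94 to 15.8 in eWAT (median 14.4) and 24.6 to 30.6 in BAT (median 27.5). Its row was identical in all files and the 3 depots did not overlap. On the log2 scale its fold change over BAT was -0.81 ± 0.08 in iWAT and -1.34 ± 0.10 in eWAT (edgeR adjusted p = 9.48e-07 and 5.12e-10). The glutamate carrier Slc25a22 had log2 fold changes of -0.52 ± 0.09 and -1.24 ± 0.11, and the ornithine carrier Slc25a15 of -0.72 ± 0.11 and -0.64 ± 0.10, in iWAT and eWAT over BAT (edgeR adjusted p = 1.58e-04, 1.08e-08, 4.13e-05 and 1.61e-05). Slc25a29, a carrier of basic amino acids, was higher in eWAT than in BAT by 0.72 ± 0.20 (edgeR adjusted p = 0.00328).

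The fold changes of the aspartate/glutamate carriers moved strongly with single libraries. Slc25a12 had 62 to 87 reads in 5 BAT samples and 712 in that of mouse 12, 18 to 106 in iWAT and 123 to 410 in eWAT. The log2 fold change of -2.08 ± 0.66 in iWAT over BAT (edgeR adjusted p = 0.0119) became -0.87 without mouse 12 (edgeR adjusted p = 0.0303). In eWAT over BAT the value was -0.18 ± 0.56, not past the threshold (edgeR adjusted p = 0.786), and 1.02 without that sample (edgeR adjusted p = 0.0151). Slc25a13 had 2 to 9 reads in every iWAT and BAT sample, 21 to 52 in 5 eWAT samples and 495 in the eWAT sample of mouse 15. Its log2 fold change was 4.14 ± 0.80 in eWAT over BAT (edgeR adjusted p = 1.50e-04). The gene passed the minimum of reads through the eWAT samples alone, where it was high, so this call follows in part from that minimum. It could not be tested without mouse 15, as only 5 eWAT samples then reached that minimum.

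Slc25a20, the only member that brings acylcarnitines into the matrix for oxidation, separated the depots widely. Its RPKM values were 8.74 to 16.1 in iWAT (median 11.9), 21.2 to 30.8 in eWAT (median 24.1) and 60.1 to 74.5 in BAT (median 71.1). No depots overlapped in RPKM, although the reads of the white depots did, with 962 to 2201 in iWAT and 1264 to 1658 in the shorter eWAT row. Relative to BAT it had a log2 fold change of -2.82 ± 0.14 in iWAT and -3.09 ± 0.14 in eWAT, the latter -2.22 with row length as an offset (edgeR adjusted p = 5.64e-10, 8.01e-13 and 5.14e-11).

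Among carriers of cofactors, nucleotides and glutathione, 7 of 10 were lower in iWAT than in BAT, against 33.6% of all rows, and 8 of 10 were lower in eWAT than in BAT, against 34.7% of all symbols. On reads 0 were higher. With row length as an offset as well, 7 of the 8 were lower in eWAT, while Slc25a36 turned and Slc25a40, a glutathione carrier, was higher by 0.86 (edgeR adjusted p = 9.16e-07). Slc25a42 (mm9 chromosome 8, 72708238 to 72736204, minus strand), which carries coenzyme A into mitochondria, had RPKM values of 1.38 to 2.02 in iWAT (median 1.71), 2.37 to 4.14 in eWAT (median 3.48) and 17.8 to 33.8 in BAT (median 20.2). The lowest BAT sample was above all white adipocyte samples. Its log2 fold change over BAT was -3.99 ± 0.15 in iWAT and -4.32 ± 0.16 in eWAT (edgeR adjusted p = 7.34e-11 and 1.09e-13). In the latter it was -3.42 with row length as an offset.

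Slc25a39, a glutathione carrier, had a median RPKM of 27.9 in iWAT (25 to 33), 45.3 in eWAT (36.7 to 59.4) and 57.2 in BAT (49.1 to 60.5). On the log2 scale its fold change over BAT was -1.26 ± 0.09 in iWAT and -1.47 ± 0.11 in eWAT (edgeR adjusted p = 1.68e-08 and 1.42e-09). Its role in red cell precursors is well known, and 7 erythroid markers summed to 637 to 1812 RPKM in BAT, 104 to 728.5 in iWAT and 232 to 1610 in eWAT. The part of these markers in the levels of Slc25a39 and of the mitoferrin Slc25a37 was not tested.

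The other genes of this group differed less. The peroxisomal cofactor carrier Slc25a17, the folate carrier Slc25a32 and the pyrimidine nucleotide carrier Slc25a33 had log2 fold changes of -0.81, -1.15 and -0.996 in iWAT and -0.81, -1.03 and -1.46 in eWAT over BAT. Slc25a26, the carrier of S-adenosylmethionine, had -0.55 and -0.75. Its row overlaps that of Lrig1, on the opposite strand, only at its end (mm9 chromosome 6, 94554523 to 94554649). Lrig1 had a mean of 1584 reads in iWAT over its whole row, against 303.5 for Slc25a26. How many of these reads lie in the shared stretch is not known. The library kit named in the labels does not mark strand, so reads of overlapping genes cannot be told apart. Slc25a16 (mean RPKM of 9.10 in BAT, 16.5 in eWAT and 11.2 in iWAT) did not pass in either comparison, which does not show that its levels are alike. Slc25a36 (11.9 in eWAT and 5.59 in BAT) passed as lower in eWAT on reads (-0.20, edgeR adjusted p = 0.0306), was not past it with the replicate block (edgeR adjusted p = 0.189) or without mouse 15 (-0.15, edgeR adjusted p = 0.0745), and turned to 0.36 with row length as an offset.

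The iron carriers, or mitoferrins, had the following levels. Slc25a28 (mitoferrin 2) had a mean RPKM of 6.09 ± 1.05 in BAT, 7.13 ± 1.22 in eWAT and 7.49 ± 0.912 in iWAT (SD, n = 6) and did not pass on reads in any comparison. With row length as an offset its log2 fold change was -0.49 in eWAT over BAT and 0.51 in iWAT over eWAT, both past the threshold (edgeR adjusted p = 0.00147 and 0.00212). The rows of Slc25a28 differed in length by a ratio of only 1.007. Row length thus hardly enters for this gene, whereas that fit scales the samples anew. Slc25a37 (mitoferrin 1) was lower in iWAT than in BAT by a log2 fold change of -0.59 ± 0.13 (edgeR adjusted p = 0.00123). In eWAT it was -0.44 ± 0.18 (edgeR adjusted p = 0.0342) and did not pass with row length as an offset (-0.34, edgeR adjusted p = 0.0838).

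The last group, carriers of the outer membrane or not assigned a substrate here, held the widest difference with BAT, that of Slc25a48. Slc25a48 (mm9 chromosome 13, 56539716 to 56575600, plus strand) had RPKM values of 0.281 to 0.589 in iWAT (median 0.391), 0.0696 to 0.178 in eWAT (median 0.0801) and 7.51 to 11.8 in BAT (median 10.4). None of the depots overlapped, with 23 to 64 reads in iWAT, 7 to 16 in eWAT and 775 to 1373 in BAT. Relative to BAT it had a log2 fold change of -4.88 ± 0.19 in iWAT, or 29.5-fold lower, and -7.03 ± 0.25 in eWAT (edgeR adjusted p = 8.82e-11 and 4.86e-14). The rows of Slc25a48 differed in length by a ratio of only 1.002, and the latter value was -7.42 with row length as an offset.

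Slc25a34 had 168 to 496 reads in BAT, 15 to 53 in iWAT and 6 to 14 in eWAT. The BAT samples lay above all others. Its log2 fold change over BAT was -3.49 ± 0.32 in iWAT and -5.17 ± 0.34 in eWAT (edgeR adjusted p = 3.03e-07 and 1.34e-10). The related Slc25a35 had a median RPKM of 25.4 in BAT, 10.4 in iWAT and 8.23 in eWAT, and its log2 fold change over BAT was -1.57 ± 0.14 in iWAT and -2.36 ± 0.17 in eWAT (edgeR adjusted p = 1.76e-07 and 7.34e-10). Slc25a46, which sits in the outer membrane, had mean RPKM values of 10.6, 14.3 and 14.8 in iWAT, eWAT and BAT and log2 fold changes over BAT of -0.75 and -0.72. Slc25a45 was higher in both white depots, by 0.63 ± 0.15 in iWAT and 1.28 ± 0.24 in eWAT (edgeR adjusted p = 0.00185 and 1.28e-04), the latter 0.94 without mouse 15, its highest sample (edgeR adjusted p = 2.84e-05).

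Between the white depots, iWAT was higher than eWAT in 9 of 40 genes and lower in 5, and 26 did not pass (edgeR, adjusted p under 0.05). Over all symbols tested 25.6% passed, 13.4% higher and 12.3% lower in iWAT, and members passed at a rate of 35%, with 22.5% higher and 12.5% lower. With row length as an offset the counts were 11 and 14, and the genes that passed in one direction both ways were 7 higher and 4 lower. When the eWAT sample of mouse 15 was also left out, 6 higher (Slc25a11, Slc25a22, Slc25a34, Slc25a35, Slc25a44 and Slc25a48) and 2 lower genes (Slc25a24 and Ucp2) remained in that count. Of the 21 respiratory chain genes, 17 were higher in iWAT on reads, which lean low in eWAT where its row is shorter. Their summed RPKM, which leans high there, had a median of 1494 in iWAT and 2029 in eWAT. No direction between the white depots is therefore given for this list.

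Slc25a48 had the widest gap among the higher genes, with a log2 fold change of 2.09 ± 0.25 in iWAT over eWAT, followed by Slc25a34 with 1.63 ± 0.33 (edgeR adjusted p = 7.66e-06 and 0.00159). Both were low in white adipocytes, with the reads given above. Slc25a35 (0.73 ± 0.17), Slc25a22 (0.67 ± 0.11) and Slc25a44 (0.49 ± 0.09) followed (edgeR adjusted p = 0.00345, 2.47e-04 and 0.00105). Slc25a44, whose row was the same in all files, had no overlap between the 2 depots. Slc25a1 (0.66 ± 0.22, edgeR adjusted p = 0.0370) and Slc25a11 (0.29 ± 0.09, edgeR adjusted p = 0.0318) did not pass with the replicate block, at edgeR adjusted p of 0.0513 and 0.0692. Slc25a1 was also not past the threshold without mouse 15 (0.55, edgeR adjusted p = 0.0765). Slc25a23 (0.48 ± 0.16) was not past the threshold with row length as an offset (edgeR adjusted p = 0.222), and Slc25a3 turned from 0.41 to -1.45.

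Lower in iWAT than in eWAT were Slc25a13 (-4.36 ± 0.81), Ucp2 (-2.37 ± 0.46), Slc25a12 (-1.94 ± 0.60), Slc25a24 (-1.36 ± 0.24) and Slc25a45 (-0.69 ± 0.24), with edgeR adjusted p of 7.51e-04, 0.00112, 0.0225, 4.26e-04 and 0.0382. The eWAT sample of mouse 15 was the highest eWAT sample for each of the 5 genes. Without it Ucp2 was -1.495 and Slc25a24 -1.07 (edgeR adjusted p = 2.51e-04 and 1.79e-04). Slc25a12 (-1.63, edgeR adjusted p = 0.0579) and Slc25a45 (-0.36, edgeR adjusted p = 0.0998) were then not past the threshold, and Slc25a13 could not be tested. Slc25a13 had also passed the minimum of reads through its eWAT samples alone. Slc25a45 did not pass with the replicate block either (edgeR adjusted p = 0.183).

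**Figure D3:**
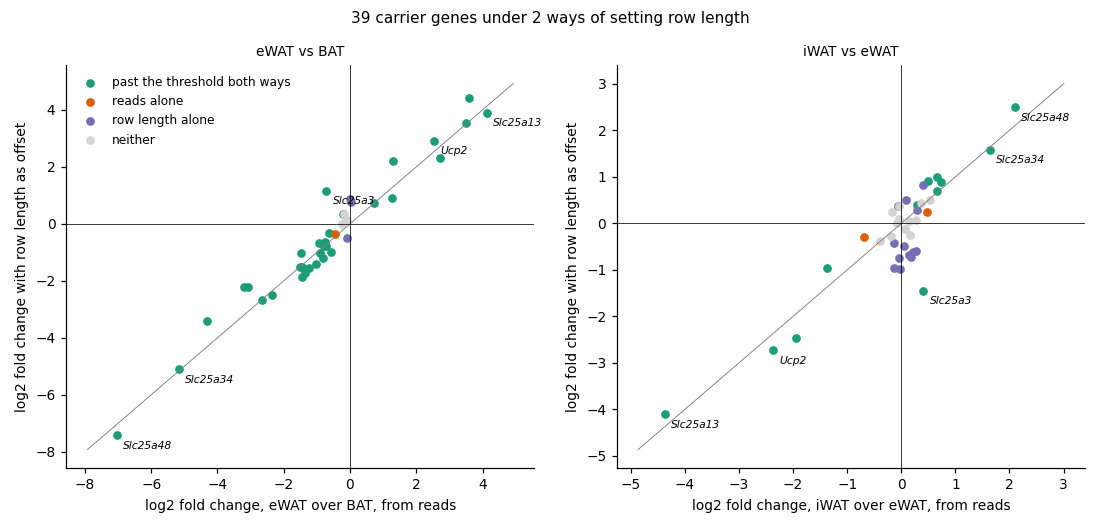
Log2 fold change of 39 of the 40 carriers tested, from reads (x axis) and with the length of each row as an offset (y axis), for eWAT over BAT (left) and iWAT over eWAT (right), with the line of equal values. The wide differences with BAT lie near the line, whereas many small ones between iWAT and eWAT pass the threshold only with row length, and Slc25a3 changes sign in both.

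**Figure D4:**
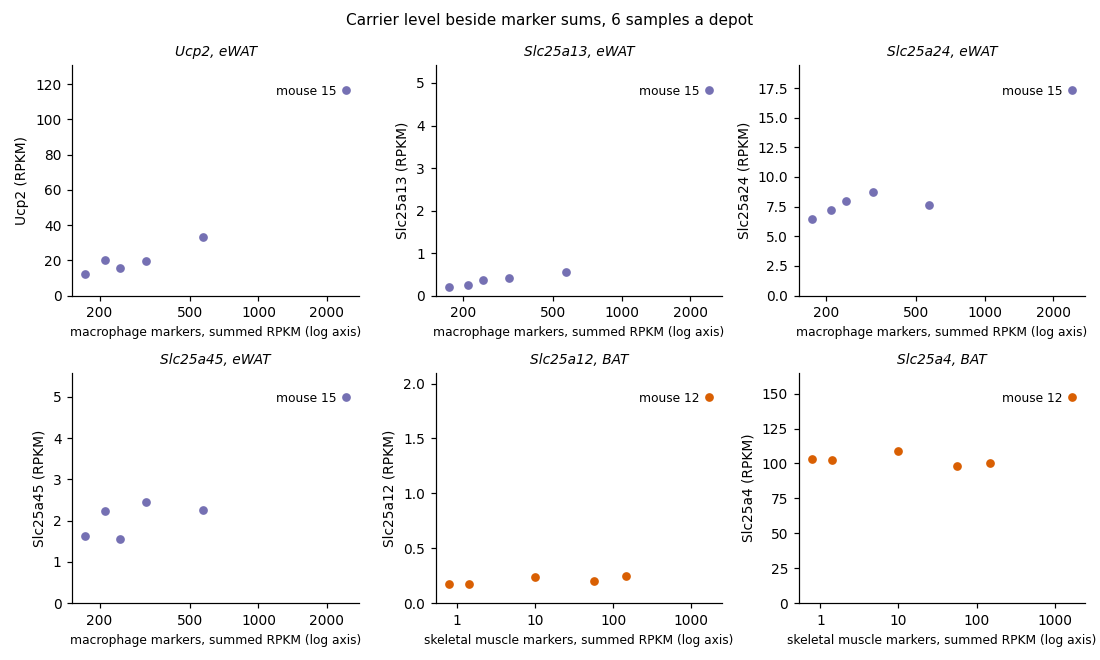
RPKM of 4 carriers in the 6 eWAT samples beside the summed RPKM of macrophage markers (log axis), and of 2 carriers in the 6 BAT samples beside that of skeletal muscle markers. Mouse 15 holds the top value of Ucp2 (116.7), Slc25a13 (4.84), Slc25a24 (17.3) and Slc25a45 (4.99) with a marker sum of 2421, and mouse 12 that of Slc25a12 (1.87) and Slc25a4 (147) with a marker sum of 1679.

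The balance of related carriers was compared as a ratio of RPKM within each sample, which needs no scaling between samples. Of 20 such comparisons of 7 ratios, 13 passed after Benjamini-Hochberg adjustment (two-sided exact permutation test of the log2 ratio, 6 against 6 samples, for which 0.00216 is the smallest possible p and 0.00433 its adjusted value here). Ucp3 over Ucp2 gave the clearest order, with a geometric mean of 13.1 in BAT (7.65 to 17.2), 2.29 in iWAT (1.40 to 3.53) and 0.349 in eWAT (0.0447 to 0.679). No depots overlapped, and each pair had an adjusted exact permutation p of 0.00433. The lowest eWAT value was that of mouse 15, and without it the log2 difference between eWAT and BAT went from -5.23 to -4.64.

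Slc25a25 over Slc25a24 was 5.94 in iWAT (4.54 to 7.82) and 1.13 in BAT (0.819 to 1.504), with an adjusted exact permutation p of 0.00433. In eWAT it was 4.94 (1.74 to 7.63), also above BAT with the same p, although the log2 difference of 2.13 shrank to 0.91 in a ratio of reads. The ADP/ATP carriers Slc25a4 over Slc25a5 stood at 1.16 in iWAT (1.06 to 1.25) and 1.58 in BAT (1.34 to 2.37), with no overlap and an adjusted exact permutation p of 0.00433. Without mouse 12 the log2 difference of -0.44 became -0.33 and was still past the threshold (adjusted exact permutation p = 0.00787).

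The mitoferrin ratio Slc25a28 over Slc25a37 was 4.68 in iWAT (3.96 to 5.54) and 3.02 in BAT (2.40 to 3.85), and did not overlap between them (adjusted exact permutation p = 0.00433). For the pyrimidine nucleotide carriers, Slc25a33 over Slc25a36 was 0.670 in iWAT (0.404 to 1.03) and 1.28 in BAT (0.900 to 1.505), with an adjusted exact permutation p of 0.00787. In eWAT it was 0.279 (0.255 to 0.308), below BAT also in a ratio of reads. The differences between iWAT and eWAT in these last 2 ratios (log2 differences of 0.76 and 1.26) were not past the threshold in a ratio of reads. Slc25a22 over Slc25a18 and Slc25a12 over Slc25a13 were lower in eWAT than in BAT (adjusted exact permutation p = 0.0166 for each), but Slc25a18 and Slc25a13 rest on at most 10 reads in every BAT sample, and neither ratio passed without the eWAT samples of mice 14 and 15.

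**Figure D5:**
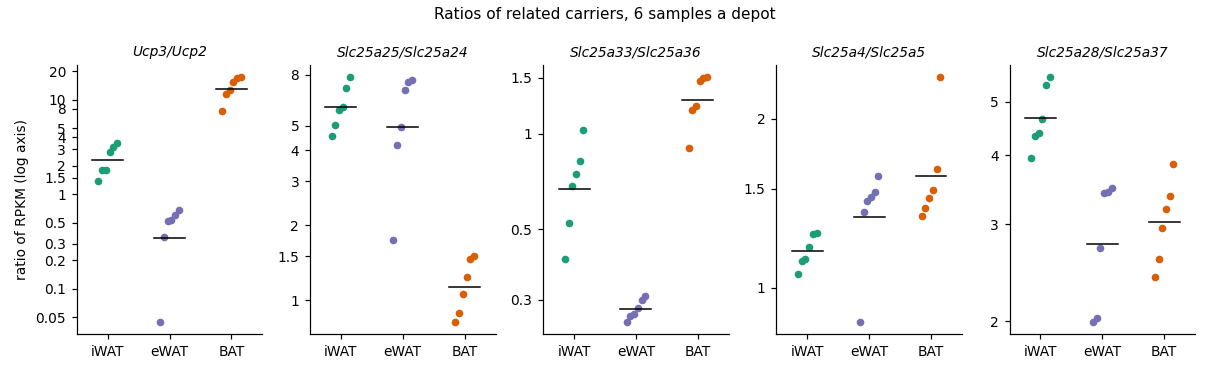
Ratio of RPKM of related carriers in each sample (points, log axis) with the geometric mean of 6 samples (black bars) in iWAT, eWAT and BAT. Ucp3 over Ucp2 falls from a geometric mean of 13.1 in BAT to 2.29 in iWAT and 0.349 in eWAT, and the single low eWAT point is mouse 15.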

How the data were processed

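RNA-seq was analysed in 18 libraries (6 each of iWAT, eWAT and BAT). According to the study's methods, NEBNext Ultra RNA libraries were sequenced on an Illumina HiSeq and analysed with the Genomatix Genome Analyzer on mm9. The submitters' processing notes name cutadapt (1.16) and HISAT2 (2.1.0). How reads were counted is not given in the sources used here. The authors deposited a read count, not normalized, and an RPKM for each row. Rows are 53445 merged genes in iWAT and BAT and 189660 transcripts in eWAT. RPKM is scaled to all reads of a sample, so it moves with a few very abundant genes.

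From these files, read counts were tested with edgeR (4.0.16, glmQLFit and glmQLFTest) in R (4.3.3) with TMM. Library sizes were the reads from which the RPKM had been computed, and a row needed 10 reads or more in 6 samples. The Benjamini-Hochberg adjusted p, over all rows tested, had to be under 0.05. iWAT and BAT were fitted on 12 samples, and comparisons with eWAT on 18 samples with 1 row per symbol. Standard errors (SE) were derived from the F statistic. Ratios were tested by exact permutation in Python (3.11.15, scipy 1.17.1). DESeq2 (1.42.0), limma (3.58.1) on log2(RPKM + 0.1) or log2(RPKM + 1), other filters, scalings and left-out samples were alternatives, and fits without eWAT mouse 15 were chosen after seeing the data. On simulated counts for iWAT and BAT over 19733 rows, 75 of 100 genes changed 2-fold and 95 of 100 changed 4-fold were found, and 3 of 19533 unchanged genes were called. Over 18383 symbols, 59 and 93 of 100 were found for eWAT and BAT, with 6 of 18183 unchanged genes called, and 60 and 93 of 100 for iWAT and eWAT, with 5 of 18183.

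The members, gene lists and ratios were chosen with earlier results of these data known. Named are members with a mean RPKM of 10 or more, the 10 widest changes in each direction past the threshold, members of a ratio, and Ucp2 and Ucp3, with others as examples. Values of 1 member are not reported here, though it is in the counts. Deviations of samples with the same mouse number correlated by -0.0385 to 0.125 between iWAT and BAT (4 numbers), -0.152 to 0.0549 between eWAT and BAT (4) and -0.328 to 0.147 between iWAT and eWAT (5). The labels do not say that samples of a depot came from separate mice, so p-values measure only the spread between these samples, which may be technical.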

Additional observations from a re-analysis of the deposited data

Results flagged for a closer look

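Among carriers whose mean RPKM reached 1, 97 sets of 6 samples were examined for a sample far from the others, and 9 had one. Chance gives about 1 in 20, or 4.85. Of these, 5 lay in the eWAT sample of mouse 15: Ucp2 (RPKM of 116.7, others 12.5 to 33.5), Slc25a13 (4.84, others 0.199 to 0.552), Slc25a24 (17.3, others 6.42 to 8.73), Slc25a45 (4.99, others 1.55 to 2.45) and Slc25a12 (1.97, others 0.590 to 1.04). Slc25a13 and Slc25a12 reached a mean of 1 in eWAT (1.10 and 1.03) only through that sample. The rate of 1 in 20 does not hold for sets kept by their own far sample. The eWAT sample of mouse 15 also had the highest macrophage marker sum, and the part of these markers was not tested.

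Slc25a4 in the BAT sample of mouse 12 had an RPKM of 147.4 (others 98.4 to 108.8), beside the highest skeletal muscle marker sum. Slc25a28 was highest in mouse 11 in both iWAT (9.24, others 6.80 to 7.68) and BAT (8.09, others 5.13 to 6.08). Slc25a3 in iWAT was highest in mouse 14 (42.6, others 35.5 to 36.8). That sample had the highest iWAT sum of endothelial markers (349.5, others at most 154.1) and of the respiratory chain genes (1814.5, others at most 1583). It was also highest for other mitochondrial transport (747.8, others at most 720), brown fat (122, others at most 106) and erythroid markers (728.5, others at most 517). It was not the highest for the remaining marker lists. The part of any of these was not tested.

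Further merged rows carry the symbols of members and were not used. A single-exon Slc25a5 row on chromosome 1 had mean RPKM values of 45.5 in iWAT and 46.2 in BAT. A pair of single-exon Slc25a37 rows on chromosome 14 had 0.245 and 0.111 in iWAT and 0.238 and 0.128 in BAT.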

How the results depend on the processing

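All genes named with a fold change kept their direction in iWAT over BAT under DESeq2, other size factors, other filters and the fit of all 18 samples. Slc25a3 and Slc25a47 were not past the threshold without a filter, and DESeq2 gave no adjusted p for Slc25a12. The number of members past the threshold stayed within 1.5 times in every alternative for iWAT and BAT. For eWAT and BAT it was 2 of the 2 genes with the same row in all files that could be tested. For iWAT and eWAT, where 14 passed on reads, it was 29 with limma and a pseudocount of 0.1, 27 with 1, 25 with row length as an offset, 25 when mouse 15 was also left out, and 1 of 2 on shared rows. No pair of carriers had the same row in all files, so ratios on shared rows were not run. With the mouse number as a replicate block, the members past the threshold were 5 higher and 25 lower for iWAT over BAT, 8 and 25 for eWAT over BAT, and 7 and 4 for iWAT over eWAT, and besides the genes named above the paired fit changed no call.

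limma on unscaled RPKM moved the median log2 fold change of all genes to 0.24 in iWAT over BAT, 0.71 in eWAT over BAT and -0.34 in iWAT over eWAT at a pseudocount of 0.1, and to 0.14, 0.42 and -0.20 at 1. The share of calls in the higher direction went from 50.3% to 65.2%, from 50.6% to 77.9% and from 52.2% to 10.2% at 0.1. Changes are best read relative to these shifts. Members were then 9 higher and 19 lower, 16 and 17, and 5 and 24. Signs turned under it, at 0.1 and 1, for Slc25a3 in iWAT over BAT (0.012 and 0.012), in eWAT over BAT for Slc25a3 (1.88, 1.86), Slc25a12 (1.35, 0.51), Slc25a15 (0.39, 0.30), Slc25a26 (0.073, 0.065), Slc25a36 (1.07, 0.96) and Slc25a37 (0.34, 0.25), and in iWAT over eWAT for Slc25a3 (-1.87, -1.85), Slc25a11 (-0.035, -0.034) and Slc25a23 (-0.14, -0.13). With row length as an offset, with and without mouse 15, they turned in eWAT over BAT for Slc25a3 (1.17, 1.14), Slc25a36 (0.36, 0.41) and Slc25a12 (0.35, 0.052), and in iWAT over eWAT for Slc25a3 (-1.45, -1.42), and for Slc25a45 only without mouse 15 (0.032). Slc25a12 in eWAT over BAT also turned with the replicate block (0.51) and ranged from -0.49 without eWAT mouse 15 to 1.02 without BAT mouse 12. Of the ratios, Slc25a28 over Slc25a37 in eWAT against BAT turned to 0.37 as a ratio of reads, and Slc25a25 over Slc25a24 in iWAT against eWAT to -0.035 without mouse 15 (0.27 without BAT mouse 12); neither had passed. The cause was not tested. Depth limits Slc25a13, Slc25a27, Slc25a34 and Slc25a48 in white adipocytes, with few reads each.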
